A study of Homo sapiens with 24 samples.

Results

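The symbol LINC followed by a number is given to long noncoding RNA genes that lie between protein-coding genes and have no other name. In the deposited counts of the H1299 cell lines, 2223 rows carried such a symbol, 970 of them had at least 1 count, and 182 had 20 or more counts in at least 4 of the 24 libraries. These 182 LINC transcripts are described here, out of 60563 named genes in all, and all 182 were among the 17990 genes tested. They were selected on these raw counts, so their level is a description and not a finding. The 5 transcripts just inside the limit had a fourth-highest count of 20 to 24, and the 5 just outside it, with 20 counts in 3 libraries, had one of 16 to 19.

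H1299 cells derive from a human lung carcinoma of the non-small cell type and are p53 null. Control cells carried the vector only, and 5 clonal cell lines carried a plasmid for an isoform of p53: Δ133p53α in Δ133p53α1, Δ133p53α2 and Δ133p53α8, and Δ133p53β in Δ133p53β5 and Δ133p53β10. The age of the cultures and any drug treatment are not given in the sources used here. Poly(A) RNA was sequenced in 4 libraries per line, with 21531599 to 25381731 counts each. Each line is a single clone with a single control line beside it, and nothing says that the 4 libraries of a line came from separate cultures. The p-values therefore measure only the spread between these libraries, and an effect of an isoform and a difference between clones cannot be told apart within a line.

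Long noncoding RNAs are transcribed by RNA polymerase II and are often capped, spliced and polyadenylated like messenger RNA, but encode no known protein. Most are present at low levels and in few cell types, and some act on genes close to their own locus, whereas others act elsewhere in the nucleus or in the cytoplasm. The p53 protein is a transcription factor that controls several long noncoding RNAs. The Δ133p53 isoforms lack the transactivation domains and the first part of the DNA-binding domain, and the β form ends in a different carboxyl terminus from the α form.

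Before the results, several facts about the libraries matter. The sample titles give 3 libraries to Δ133p53β5 and 5 to Δ133p53β10, whereas the deposited counts name 4 of each. The library in dispute, replicate 4 of Δ133p53β5 in the counts, was counted in Δ133p53β5, and results that rest on it are given without it as well. The libraries also fell into 2 sets of 12 by how the deviation of each gene from its mean ranked with gene length across genes, with rank correlations of 0.186 to 0.303 in one set and -0.269 to -0.115 in the other. Every line had libraries in both sets, but control, Δ133p53α2 and Δ133p53α8 had 3 of 4 in the first, whereas Δ133p53α1, Δ133p53β5 and Δ133p53β10 had 1 of 4. KRT8, KRT18 and VIM were abundant, whereas the epithelial genes KRT19, EPCAM and CDH1 were each under 0.1 CPM (the usual depth-normalised count, with library sizes scaled by TMM) on average, and the leukocyte genes PTPRC and CD3E had 0 counts. The summed level of the 5 epithelial genes was 875 to 1651 CPM in control and 1860 to 7734 CPM in the Δ133p53 libraries, and its part in the results below was not tested.

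In all, 6 LINC transcripts were called in the same direction in all 5 Δ133p53 cell lines, and their promoter sequences are shown first because they show how unlike these loci are in sequence. The sequences are from RefSeq (GRCh38.p14), run from 250 bases before to 50 bases after the annotated start in the direction of transcription, and carry each CG dinucleotide in capitals. The first 4 transcripts were higher than control, and the last pair were lower. LINC01094 is at chr4:78645744-78646043 (+ strand), LINC01896 at chr18:78979642-78979941 (- strand), LINC02057 at chr5:61264880-61265179 (- strand), LINC00513 at chr7:130913214-130913513 (+ strand), LINC01232 at chr13:99499257-99499556 (- strand) and LINC00511 at chr17:72640423-72640722 (- strand).
LINC01094: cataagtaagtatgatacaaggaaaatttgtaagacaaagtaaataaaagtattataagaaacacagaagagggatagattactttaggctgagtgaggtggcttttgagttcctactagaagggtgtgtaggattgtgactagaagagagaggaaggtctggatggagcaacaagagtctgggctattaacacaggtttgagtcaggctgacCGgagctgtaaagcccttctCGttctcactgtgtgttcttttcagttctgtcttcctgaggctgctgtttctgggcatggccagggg
LINC01896: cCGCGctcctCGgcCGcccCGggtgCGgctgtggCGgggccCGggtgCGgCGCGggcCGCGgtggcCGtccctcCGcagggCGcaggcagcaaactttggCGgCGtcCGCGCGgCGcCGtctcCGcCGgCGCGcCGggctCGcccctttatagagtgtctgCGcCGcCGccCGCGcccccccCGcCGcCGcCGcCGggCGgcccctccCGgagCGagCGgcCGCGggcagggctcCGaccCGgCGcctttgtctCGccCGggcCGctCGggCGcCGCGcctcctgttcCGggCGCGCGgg
LINC02057: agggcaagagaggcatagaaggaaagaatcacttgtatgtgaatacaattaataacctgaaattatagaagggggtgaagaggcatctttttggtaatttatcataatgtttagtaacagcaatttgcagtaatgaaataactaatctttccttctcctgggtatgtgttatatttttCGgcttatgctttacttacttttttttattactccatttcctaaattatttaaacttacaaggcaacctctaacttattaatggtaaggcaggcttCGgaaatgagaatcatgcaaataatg
LINC00513: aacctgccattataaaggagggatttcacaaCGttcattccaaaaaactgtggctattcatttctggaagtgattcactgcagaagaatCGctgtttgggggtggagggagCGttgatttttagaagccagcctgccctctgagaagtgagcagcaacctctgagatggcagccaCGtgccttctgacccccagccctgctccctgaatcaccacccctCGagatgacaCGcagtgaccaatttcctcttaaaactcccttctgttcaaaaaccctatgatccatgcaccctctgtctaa
LINC01232: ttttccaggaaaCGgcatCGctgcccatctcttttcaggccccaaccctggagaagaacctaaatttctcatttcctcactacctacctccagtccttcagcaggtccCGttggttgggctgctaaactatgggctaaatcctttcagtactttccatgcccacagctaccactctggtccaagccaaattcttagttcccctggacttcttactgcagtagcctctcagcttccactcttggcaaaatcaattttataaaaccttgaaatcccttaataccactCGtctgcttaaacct
LINC00511: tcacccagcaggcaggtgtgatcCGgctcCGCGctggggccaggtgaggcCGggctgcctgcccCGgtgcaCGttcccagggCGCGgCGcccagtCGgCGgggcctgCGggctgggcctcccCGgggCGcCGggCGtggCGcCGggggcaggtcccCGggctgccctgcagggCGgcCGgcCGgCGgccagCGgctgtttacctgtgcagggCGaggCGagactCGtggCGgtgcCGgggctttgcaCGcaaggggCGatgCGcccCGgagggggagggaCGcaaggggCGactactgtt

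The LINC01896 window held 59 CG dinucleotides at a GC content of 84.0%, and the LINC00511 window held 35 at 78.0%. The other 4 windows held between 2 and 6, at a GC content of 32.3% to 49.3%. The CG-rich and CG-poor windows therefore did not separate by direction, since LINC01896 was higher and LINC00511 lower in every line. Among all 35116 RefSeq promoter windows, 46.9% were CG-rich by a GC content of at least 50% and an observed to expected CG ratio of at least 0.6. Of the LINC transcripts, 119 matched by symbol, with 141 windows, of which 48.2% were CG-rich. The 22 windows of the 21 matched transcripts called in any comparison held 8 such windows, or 36.4%. The p53 half-site consensus, searched by its letters on both strands, was in 9 of the 141 windows (6.38%), in 6.63% of all windows and in none of the 22. The sequence TATAAA on either strand was in 13.5% of the LINC windows and in 11.5% of all windows. These matches describe letters in a window of 300 bases and are not sites.

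Levels of the 182 transcripts were low. The mean over the libraries was under 1 CPM for 38, from 1 to 10 CPM for 112, from 10 to 100 CPM for 31 and over 100 CPM for 1. Together they took 0.111% to 0.188% of the counts of a library. The most abundant was LINC00665, which has been studied in lung adenocarcinoma, at a mean of 289 CPM and a range of 137 to 574 CPM, and it held 19.96% of all counts on LINC transcripts. The next by mean CPM were LINC01896, LINC00963, LINC00839, LINC00662, LINC00513, LINC02864 and LINC00938, and the 8 together held 42.5%. Per kilobase of exon, LINC01896 was the highest at 38.5 CPM per kilobase, ahead of LINC00665 at 23.8 and LINC00513 at 16.0. At least 20 counts were found in all 24 libraries for 97 of the transcripts. A total of 3 counts, the upper limit that a count of 0 allows, correspond to 0.113 to 0.171 CPM in these libraries, and this limit covers counting error only.

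Of these 8 abundant transcripts, 6 were not called in any line, the others being LINC01896 and LINC00513. LINC00839, known from neuroblastoma and breast cancer, was the steadiest, with means of 42.8 CPM to 49.97 CPM in the 6 lines and log2 fold changes of -0.09 to 0.13 against control. LINC00867, LINC02864, LINC02367 and LINC02980 also had line means close to each other. LINC00665 averaged 441 ± 145 CPM (SD, n = 4 libraries) in Δ133p53α8 and 268 ± 130 in control, a log2 fold change of 0.72 ± 0.33 (SE) that did not pass (adjusted p = 0.312, edgeR quasi-likelihood test with Benjamini-Hochberg adjustment, as for all adjusted p-values below).

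Against control, more LINC transcripts were called higher than lower in every line. A call needed an adjusted p below 0.05 together with a log2 fold change of 1.5 or more up or down. In Δ133p53α1, 11 LINC transcripts (6.04%) were higher and 6 (3.3%) lower, compared with 1.05% and 1.41% of all tested genes. Δ133p53α2 had 7 higher (3.85%) and 4 lower (2.2%), compared with 0.967% and 1.67%. Δ133p53α8 had the same numbers, compared with 0.967% and 1.41%. Their shares on the higher side were thus further from the background than those on the lower side. For Δ133p53β5 there were 15 higher (8.24%) and 6 lower (3.3%), compared with 1.38% and 2.94%. For Δ133p53β10 there were 14 higher (7.69%) and 4 lower (2.2%), compared with 1.9% and 2.71%. The lower transcripts in both Δ133p53β lines were therefore near the background. In both directions together, the LINC transcripts were called at 9.34%, 6.04%, 6.04%, 11.5% and 9.89% in the order of lines above, beside 2.46%, 2.63%, 2.37%, 4.32% and 4.6% of all tested genes. Of 2597 other lncRNA genes that also reached 20 counts in 4 libraries, 3.7% were called in Δ133p53β5, and of the 58 tested LINC rows that did not reach it, 6.9%. Both shares are given only for Δ133p53β5, the line where the LINC share was highest. These 5 comparisons share the 4 control libraries. The minimum of 20 counts bears on these shares, because a transcript that reaches it in few libraries does so in the lines where it is high. Nothing is therefore read from these shares or from their direction. Of the 31 transcripts called in any line, 8 reached it in no control library (LINC00911, LINC00960, LINC01094, LINC01111, LINC01117, LINC01515, LINC02057 and LINC02780) and 1 in control libraries only (LINC01232). Their differences from control are therefore described below without a p. With the same minimum asked of all genes, 2.21%, 2.41%, 2.17%, 3.9% and 4.22% of 16322 genes were called in the 5 lines. The count in Δ133p53α1 fell to 10 without replicate 2 or replicate 3 of that line, to 11 without replicate 3 of control, and to 11 in a fit that held a term for the set.

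**Figure D1:**
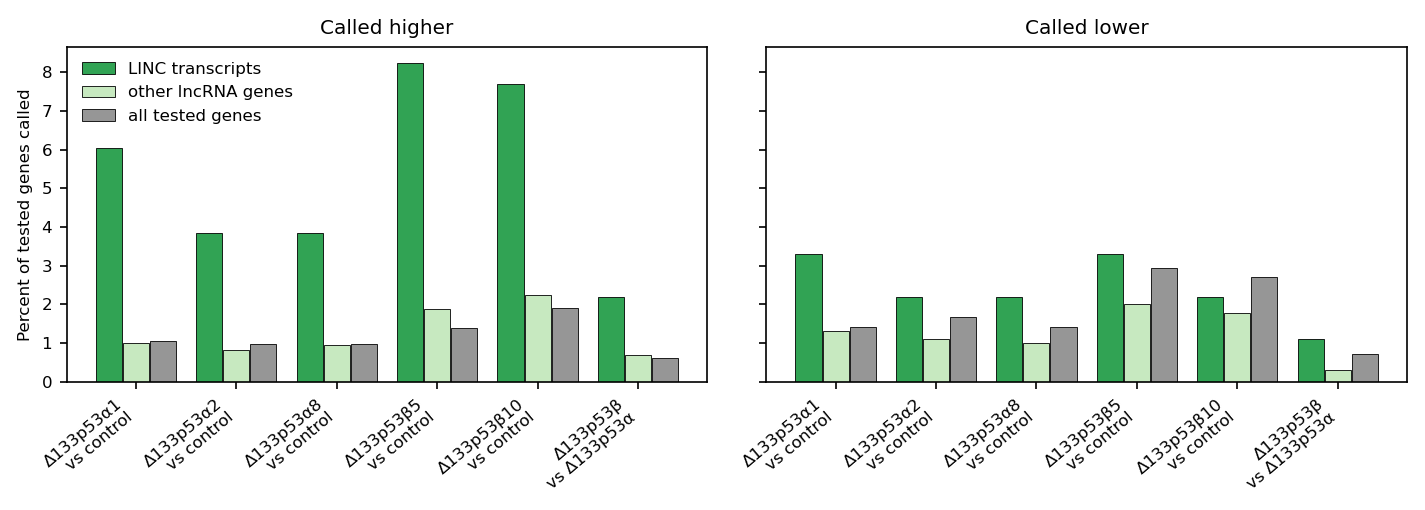
Percent of tested genes called higher (left) and lower (right) in each comparison, for the 182 LINC transcripts, for other genes annotated lncRNA and for all 17990 tested genes. The bars of the LINC transcripts stand above both backgrounds on the higher side in every comparison, and in Δ133p53β5 and Δ133p53β10 the lower bars are close to all tested genes (3.3% against 2.94%, and 2.2% against 2.71%). The choice of transcripts bears on these shares, so nothing is read from them.

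The median log2 fold change of the 182 transcripts was -0.0048 in Δ133p53β5 and 0.01 to 0.11 in the other lines, beside -0.05 to 0.03 over all tested genes. The median of the absolute log2 fold change was 0.38 to 0.51 for the LINC transcripts and 0.28 to 0.49 over all tested genes, the former being the higher in each of the 5 lines. Of the 182, 31 (17%) were called in at least 1 line, compared with 7.17% of all tested genes and 6.41% of those with the same minimum of counts. The share was 13.9% against 5.23% among those whose mean reached 1 CPM, and 28.9% against 16.5% among those below it. Of the 31, 8 reached the minimum of counts in no control library and 1 in control libraries only. LINC01419 and LINC00511 were named in the choice. Nothing is therefore read from these shares or from the shares by number of lines below. Of the 31, 12 were called in exactly 1 line (6.59% of the 182, compared with 2.83% of all tested genes), 6 in 2, 4 in 3, 3 in 4 and 6 in all 5 (3.3%, compared with 0.889%). The transcripts called in all 5 include LINC01094, LINC02057 and LINC01232, which reached the minimum either in no control library or in control libraries only. They also include LINC00511, which was named in the choice of transcripts, so nothing is read from that share. Of the same 31, 7 were called in Δ133p53α lines only, 10 in Δ133p53β lines only and 14 in lines of both isoforms. These are counts of calls and not tests of a difference between isoforms. LINC01515 alone was called in opposite directions in different lines.

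**Figure D2:**
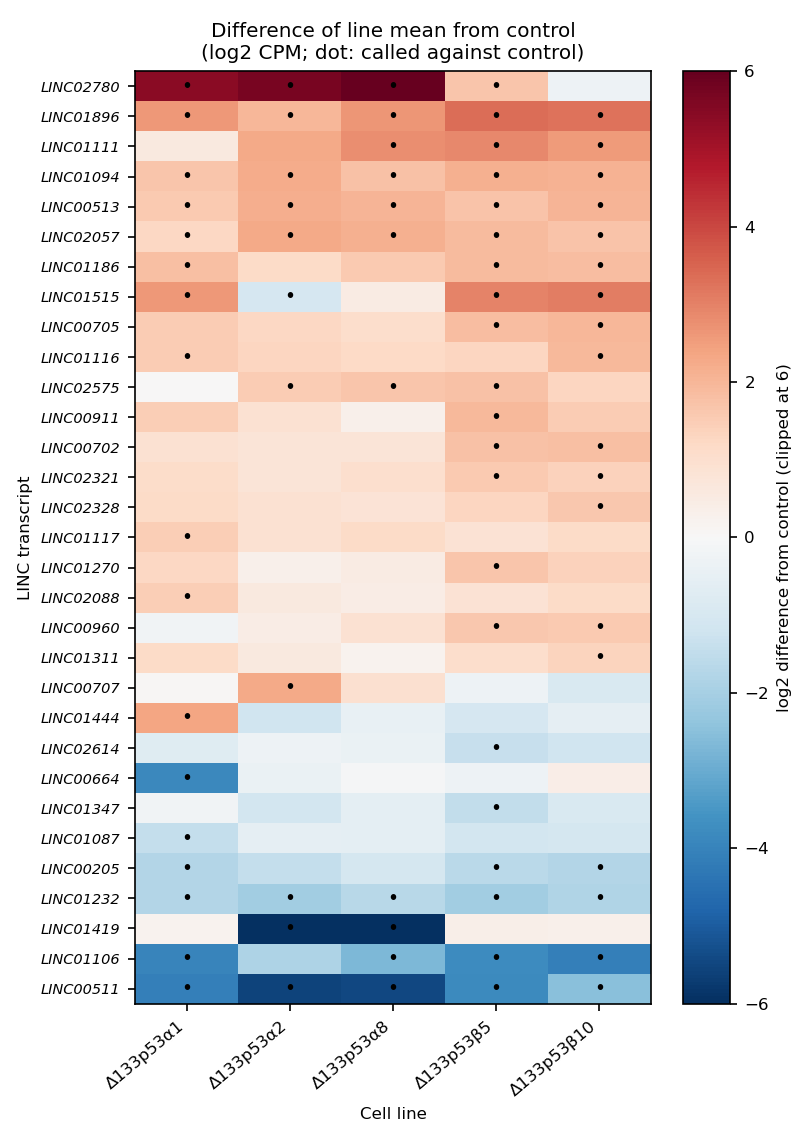
Difference of each line's mean from the control mean (log2 CPM, prior count 2) for the 31 LINC transcripts called in at least 1 comparison, with a dot where the line was called against control. LINC01094, LINC01896, LINC02057 and LINC00513 are higher and LINC01232 and LINC00511 lower with a dot in all 5 lines, and LINC02780, LINC01419 and LINC01515 split the Δ133p53α lines from each other or from the Δ133p53β lines.

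Transcripts higher in all 5 lines were LINC01896, LINC01094, LINC02057 and LINC00513 (2.2%, compared with 0.356% of all tested genes). Nothing is read from this share, since LINC01094 and LINC02057 reached the minimum of counts in Δ133p53 libraries only. LINC01896 lies head to head with SALL3, which encodes a zinc finger transcription factor. Its counts were 295, 378, 86 and 407 in control, 808, 1743, 1982 and 795 in Δ133p53α1, 1776, 1378, 545 and 485 for Δ133p53α2, 2019, 1275, 1329 and 1328 in Δ133p53α8, 1854, 2445, 2686 and 1971 for Δ133p53β5, and 1322, 2393, 4152 and 1453 in Δ133p53β10. Every Δ133p53 library was above every control library. The mean was 11.97 ± 6.36 CPM (SD, n = 4) in control and 112 ± 75.9 CPM in Δ133p53β10, and the log2 fold changes ran from 2.08 ± 0.55 (SE) in Δ133p53α2 (adjusted p = 0.0278) to 3.23 ± 0.58 in Δ133p53β10 (adjusted p = 0.000756). In Δ133p53α2 the call was lost without replicate 1 (1.48) or 2 of that line or replicate 1 or 3 of control, and with the replicate block (1.99).

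LINC00513, a transcript linked to interferon signaling, was the other abundant member of this group. Its level was 11.004 ± 3.27 CPM in control and 33.4 ± 9.77 CPM in Δ133p53α1, the lowest of the 5 lines, with 207 to 406 counts in the control libraries and 414 to 1619 in the Δ133p53 libraries. Those ranges of counts did not overlap, nor did the CPM. The log2 fold changes were 1.60 ± 0.39 in Δ133p53α1 (adjusted p = 0.0177) to 2.25 ± 0.40 in Δ133p53α2 (adjusted p = 0.000935). A term for the set of libraries took them to 1.15 in Δ133p53α1 and 1.32 in Δ133p53β5, under the fold limit, and without the disputed library Δ133p53β5 was at 1.44. The call in Δ133p53α1 was also lost without replicate 3 or 4 of that line or of control. Its RefSeq promoter window overlaps that of LINC-PINT on the opposite strand. LINC-PINT, a long noncoding RNA induced by p53, had log2 fold changes of 0.14 to 0.63 and was not called.

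LINC01094 and LINC02057 were near the floor in control. LINC01094, studied in glioma and kidney cancer, had 4, 4, 1 and 1 counts in control, 24, 10, 4 and 8 in Δ133p53α1, 8, 23, 18 and 24 for Δ133p53α2, 18, 7, 17 and 10 in Δ133p53α8, 22, 13, 16 and 12 for Δ133p53β5, and 41, 22, 6 and 8 in Δ133p53β10. LINC02057 had 3, 4, 6 and 3 counts in control and 7 to 38 in the Δ133p53 libraries. Neither overlapped with control once scaled to CPM, but the counts are few. All 6 libraries with 20 or more counts of LINC01094, and all 9 of LINC02057, were Δ133p53 libraries, so a level above control was favored by the choice of transcripts. Log2 fold changes of LINC01094 were 2.39 ± 0.62 in Δ133p53α1 to 3.02 ± 0.60 in Δ133p53β10, and those of LINC02057 were 1.61 ± 0.42 in Δ133p53α1 to 2.81 ± 0.41 in Δ133p53α2, as a description. The call of LINC01094 was lost in Δ133p53α1 without its replicate 2 and in Δ133p53α8 without its replicate 1 or 3, and in both lines without replicate 3 or 4 of control. That of LINC02057 was lost in Δ133p53α1 without its replicate 1, 2 or 3 or replicate 1, 2 or 4 of control.

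Lower in all 5 lines were LINC01232 and LINC00511 (1.1%, compared with 0.534% of all tested genes). Nothing is read from this share, since LINC00511 was named in the choice of the transcripts and LINC01232 reached 20 counts in the 4 control libraries only. LINC01232 (chr13:99486962-99499306, - strand) had 24, 36, 52 and 24 counts in control, 8, 2, 11 and 8 in Δ133p53α1, 2, 5, 8 and 8 for Δ133p53α2, 6, 10, 8 and 9 in Δ133p53α8, 8, 3, 4 and 7 for Δ133p53β5, and 9, 5, 7 and 6 in Δ133p53β10. All 20 Δ133p53 libraries were below all 4 control libraries. The log2 fold changes lay between -2.41 ± 0.43 in Δ133p53α2 and -1.87 ± 0.41 in Δ133p53α1, as a description. Its exons overlap those of TM9SF2, a widely expressed membrane protein gene on the opposite strand, which averaged 101 CPM in control and had log2 fold changes of -0.49 to -0.05 without a call. The strand setting used for counting is not given in the sources used here, so reads of the overlapping stretch may belong to either gene.

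LINC00511, which has been described as tumor promoting in lung and breast cancer, was named in the choice of the transcripts and is given without a test. It is at chr17:72290091-72640472 (- strand). Its counts were 280, 104, 162 and 76 in control, 1, 3, 4 and 20 in Δ133p53α1, 2, 0, 0 and 1 for Δ133p53α2, 0, 2, 0 and 2 in Δ133p53α8, 4, 9, 7 and 8 for Δ133p53β5, and 20, 18, 13 and 33 in Δ133p53β10. All Δ133p53 libraries were below control, and Δ133p53β10 was the highest of the 5 lines, at 0.938 ± 0.299 CPM beside 6.12 ± 3.30 CPM in control (SD, n = 4). The total of 622 counts in control and 3 in Δ133p53α2 gave a ratio of 187, with a 95% counting interval of 63.6 to 908 by the exact binomial method. SOX9, a transcription factor gene of the same region, lies 163675 bases away and had 1391, 678, 1892 and 565 counts in control and 0 to 5 in each Δ133p53 library. The nearest protein-coding gene, SLC39A11, which encodes a zinc transporter, lies 5477 bases away and had log2 fold changes of -1.19 to 0.10. It passed the p but not the fold limit in Δ133p53α2 (-1.19) and Δ133p53α8 (-1.07).

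By line means, LINC02976, LINC01234 and LINC02972 were the LINC transcripts most like LINC00511, with Pearson correlations of 0.834, 0.826 and 0.824 over the 6 lines. Over 6 points that share libraries these are descriptions only.

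Apart from these 6, LINC01116, LINC00680, LINC02577 and LINC02709 (above control) and LINC01106 (below it) also had no overlap between the 20 Δ133p53 and the 4 control libraries. In all, 8 of the 182 were above control in this way (4.4%), compared with 0.884% of all tested genes, and 3 below it (1.65%), compared with 1.36%. Nothing is read from these shares. LINC01094 and LINC02057 reached 20 counts in no control library, LINC01232 reached it in control libraries only, and LINC00511 was named in the choice. LINC01116, which lies beside the HOXD cluster and has been studied in lung cancer, had 56, 88, 76 and 82 counts in control, 132 to 217 in the Δ133p53α libraries and 116 to 309 in the Δ133p53β libraries. It was called in Δ133p53α1 at 1.56 ± 0.26 (adjusted p = 0.00072) and in Δ133p53β10 at 2.00 ± 0.26 (adjusted p = 2.82e-05), and was at 1.24 to 1.31 in the other lines, which passed the p but not the fold limit. Its neighbor LINC01117 starts from the opposite strand, and their RefSeq promoter windows share 244 bases. LINC01117 had a log2 fold change of 1.58 ± 0.41 in Δ133p53α1. Exons of the pair overlap, so the counts of the 2 may not be fully separate.

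LINC01106 had 61, 39, 99 and 28 counts in control, 0, 1, 1 and 2 in Δ133p53α1, 9, 5, 11 and 29 for Δ133p53α2, 4, 13, 3 and 5 in Δ133p53α8, 1, 4, 0 and 2 for Δ133p53β5, and 0, 1, 0 and 3 in Δ133p53β10. Of its 5 libraries with 20 or more counts, 4 were control libraries, so a level below control was favored by the choice of transcripts. As a description, it was called lower in every line except Δ133p53α2, where the log2 fold change was -1.90 without a call. LINC01106 is 1 of 5 LINC transcripts with at most 3 counts in every library of 1 line and at least 20 in every library of another, or 2.75%, compared with 0.439% of all tested genes. The others were LINC02780, LINC01419, LINC00511 and LINC00664. LINC01419 and LINC00511 were named in the choice of transcripts for such a difference, so nothing is read from the share.

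LINC02780 was high in the Δ133p53α lines only. This transcript of chr1:3976133-4012704 (+ strand) is 75840 bases from C1orf174, the nearest protein-coding gene. Its counts were 0, 0, 3 and 0 in control, 93, 100, 128 and 59 in Δ133p53α1, 233, 104, 169 and 57 for Δ133p53α2, 238, 195, 252 and 202 in Δ133p53α8, 9, 7, 5 and 3 for Δ133p53β5, and 0, 0, 0 and 0 in Δ133p53β10. All 12 Δ133p53α libraries were above all 8 Δ133p53β libraries, as was the case in this direction for 1 of the 182 transcripts (0.549%) and for 0.395% of all tested genes. With 3 counts in control over the 4 libraries, the ratio to control was 158 in Δ133p53α1 (95% counting interval 53.5 to 768), 208 in Δ133p53α2 (70.9 to 1014), 318 in Δ133p53α8 (108 to 1545) and 9.20 in Δ133p53β5 (2.79 to 47.7). It reached 20 counts in the 12 Δ133p53α libraries and in no other, so a level above the Δ133p53β libraries was favored by the choice of transcripts. The ratios and the lack of overlap are therefore descriptions, and nothing is read from the share. The call in Δ133p53β5 was lost without replicate 1, 2 or 3 of Δ133p53β5 or replicate 1, 2 or 4 of control. No ratio can be given for Δ133p53β10, since it and control were both at the floor. C1orf174 had log2 fold changes of -0.29 to 0.17 and was not called.

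LINC01419, a transcript studied in liver and other cancers, was also named in the choice and is described without a test. It lies at chr8:83403758-83408900 (+ strand), and the nearest protein-coding gene, RALYL, is 773887 bases away. Its counts were 602, 300, 452 and 311 in control, 456, 322, 376 and 353 in Δ133p53α1, 371, 634, 425 and 404 for Δ133p53β5, and 552, 490, 306 and 451 in Δ133p53β10. They were 0, 1, 0 and 3 in Δ133p53α2 and 1, 0, 8 and 4 in Δ133p53α8. In order of mean level, Δ133p53β5 (21.2 ± 5.48 CPM), Δ133p53β10 (20.3 ± 3.58), Δ133p53α1 (18.9 ± 1.91) and control (16.5 ± 4.80) lay within each other's spread, and Δ133p53α8 (0.137 ± 0.151) and Δ133p53α2 (0.041 ± 0.057) were far below. The loss was thus in 2 of the 3 Δ133p53α clones, and the libraries of Δ133p53α1 overlapped those of both Δ133p53β lines. LINC00334, LINC00973 and LINC02870 were the LINC transcripts with the most similar line means (Pearson correlations of 0.908, 0.854 and 0.853 over 6 lines), and MESD, NELFA and ATP8B3 were the most similar other genes (0.993, 0.991 and 0.989).

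**Figure D3:**
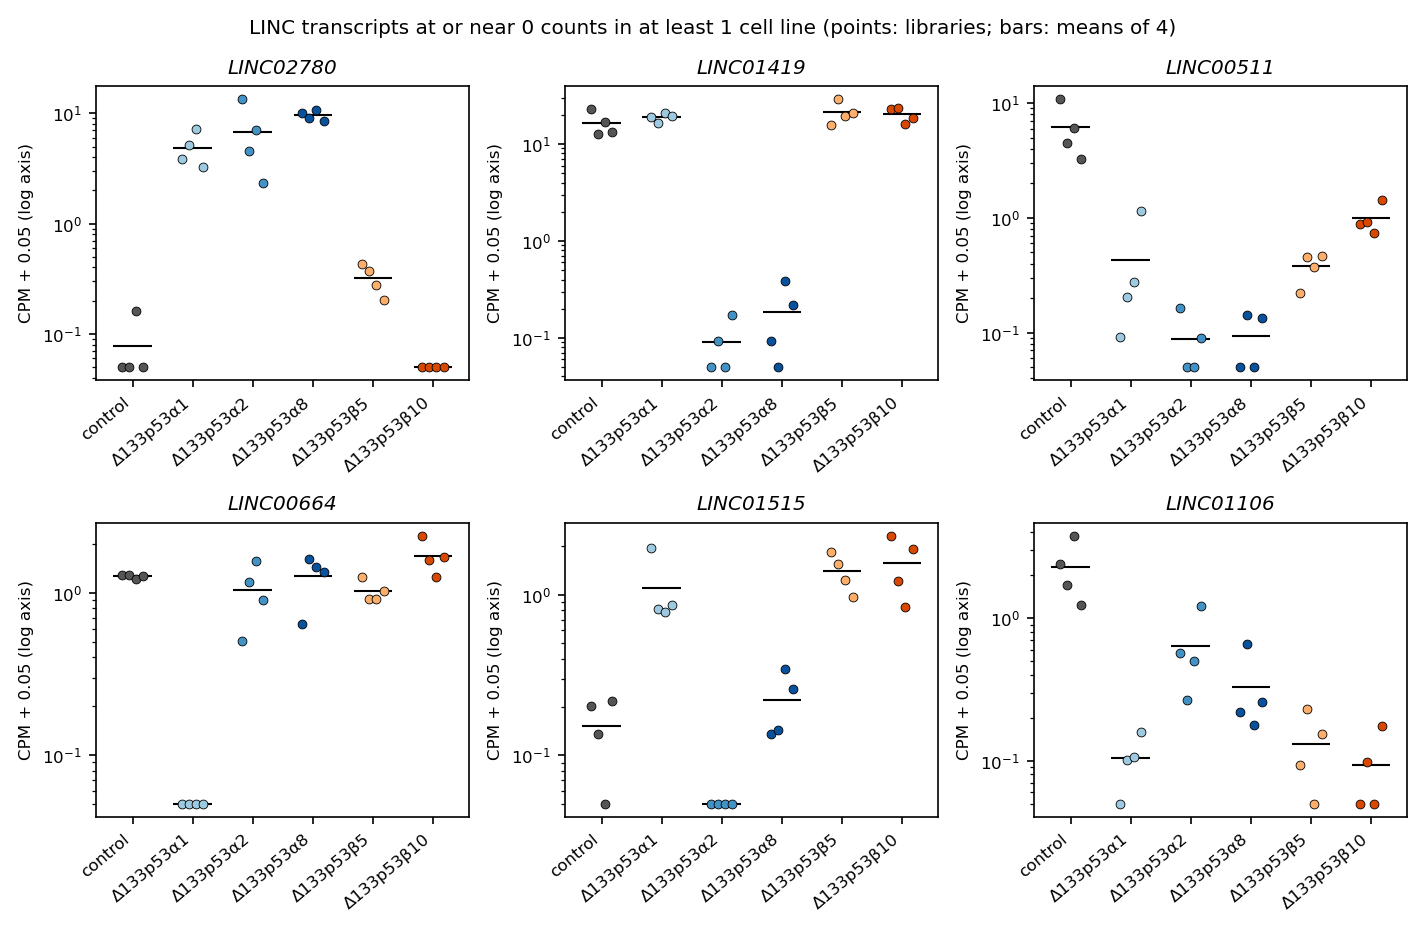
CPM plus 0.05 on a log axis in each library (points) with the mean of the 4 libraries of a line (bars), for LINC02780, LINC01419, LINC00511, LINC00664, LINC01515 and LINC01106. LINC02780 is high in the 3 Δ133p53α lines, LINC01419 is near 0 in Δ133p53α2 and Δ133p53α8, LINC00664 is at 0 in Δ133p53α1, and LINC00511 and LINC01106 are highest in control.

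Between the isoforms (mean of the 2 Δ133p53β lines minus mean of the 3 Δ133p53α lines), 6 LINC transcripts were called, or 3.3% against 1.32% of all tested genes. Higher in Δ133p53β were LINC01419, LINC01515, LINC00664 and LINC00511 (2.2%, compared with 0.606%), and lower were LINC02780 and LINC00707 (1.1%, compared with 0.717%). LINC01419 and LINC00511 were named in the choice of transcripts. LINC02780 and LINC01515 reached the minimum of counts only in lines where they were high. Their places in this count are therefore descriptions, and nothing is read from the shares between the isoforms. LINC02780 was the only one of the 6 whose Δ133p53α and Δ133p53β libraries did not overlap. Leaving 1 line out of the mean of its isoform, in turn, kept the calls of LINC02780, LINC01419 and LINC01515 in all 5 cases. This too is a description, since these transcripts were named in the choice or favored by it. LINC00664 was lost without Δ133p53α1 (log2 difference 0.21), LINC00707 without Δ133p53α2 (-1.11) and LINC00511 without Δ133p53β10.

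LINC00664, inside a cluster of zinc finger genes, had 0 counts in all 4 libraries of Δ133p53α1. It had 32, 29, 31 and 29 counts in control, 8, 26, 37 and 21 for Δ133p53α2, 14, 34, 33 and 31 in Δ133p53α8, 28, 19, 19 and 19 for Δ133p53β5, and 53, 32, 23 and 39 in Δ133p53β10. It was called in no line but Δ133p53α1, where its level was at least 8.00-fold lower than in control when 3 counts per library are allowed for (adjusted p = 6.94e-07). Its exons overlap those of ZNF429, a zinc finger gene on the same strand, which had log2 fold changes of -0.64 to 0.16 and no call.

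LINC01515 had 4, 2, 0 and 4 counts in control, 46, 15, 13 and 15 in Δ133p53α1, 0, 0, 0 and 0 for Δ133p53α2, 2, 2, 7 and 5 in Δ133p53α8, 42, 33, 26 and 18 for Δ133p53β5, and 55, 24, 15 and 45 in Δ133p53β10. The log2 fold changes were 3.32 ± 0.59 in Δ133p53α1, 3.68 ± 0.59 in Δ133p53β5 and 3.85 ± 0.59 in Δ133p53β10, as a description, since its 7 libraries with 20 or more counts were all in these 3 lines. In Δ133p53α2 it was called lower, but with 10 counts in control over 4 libraries no fold is given, and the call was lost with limma and without any 1 of the libraries of Δ133p53α2. As with LINC01419, Δ133p53α1 was like the Δ133p53β lines, at 1.05 ± 0.567 CPM beside 1.35 ± 0.376 in Δ133p53β5 and 1.52 ± 0.673 in Δ133p53β10.

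LINC00707, which has been studied in lung adenocarcinoma, had 79, 51, 33 and 54 counts in control, 58, 68, 57 and 15 in Δ133p53α1, 155, 239, 311 and 253 for Δ133p53α2, 119, 62, 95 and 126 in Δ133p53α8, 54, 34, 29 and 31 for Δ133p53β5, and 54, 33, 24 and 6 in Δ133p53β10. It was called against control in Δ133p53α2 only, at 2.27 ± 0.45 (adjusted p = 0.00248), and between the isoforms at -1.67 ± 0.30 (adjusted p = 0.0011). LINC01036 was the converse of LINC02780 in overlap: all 8 Δ133p53β libraries, with 87 to 183 counts, were above all 12 Δ133p53α libraries once scaled to CPM, as for 0.367% of all tested genes. Its log2 difference was 0.84 ± 0.13 (adjusted p = 0.000278), under the fold limit.

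LINC02575 and LINC01444 differed between clones of the same isoform. Among the lines of an isoform (Δ133p53α1, Δ133p53α2 and Δ133p53α8 with each other and Δ133p53β5 with Δ133p53β10), 5 of the 182 differed in an F test (2.75%), compared with 0.723% of all tested genes. They were LINC01419, LINC01515, LINC00664, LINC01444 and LINC02575. LINC01419 was named in the choice of transcripts, and LINC01515 and LINC01444 reached 20 counts mostly or only in lines where they were high, so nothing is read from the share. LINC02575 had 43 to 54 counts in control and 35 to 45 in Δ133p53α1, but 113 to 150 in Δ133p53α2 and 122 to 157 in Δ133p53α8 (F test, adjusted p = 0.000504). LINC01444 had 35, 45, 63 and 92 counts in Δ133p53α1, above all other Δ133p53 libraries, where it had 2 to 13, and above control with 8 to 20 (log2 fold change against control 2.596 ± 0.46). In each of these 5 transcripts, the libraries of Δ133p53α1 did not overlap with those of Δ133p53α2 or Δ133p53α8. Over all 6 lines, 36 of the 182 differed (19.8%), compared with 10.1% of all tested genes. The choice of transcripts bears on this count as well, so nothing is read from its share. The share of the variance among the 24 libraries that lay between lines had a median of 37.1% for the LINC transcripts and 31.6% for all tested genes.

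Besides LINC00664, LINC01444 and LINC00707, the transcripts called in a single line included LINC00911 (log2 fold change 1.99 ± 0.57) and LINC02614 (-1.73 ± 0.53, adjusted p = 0.0401) in Δ133p53β5, and LINC02328 (1.60 ± 0.32, adjusted p = 0.00209) and LINC01311 (1.54 ± 0.40, adjusted p = 0.0156) in Δ133p53β10. Δ133p53α8 had no such transcript. LINC02614 was lost without any 1 of the libraries of Δ133p53β5 or replicate 1 or 3 of control, and LINC00911 without replicate 2 or 3 of Δ133p53β5 or replicate 1 or 3 of control. LINC01311 was at 1.01 and LINC02328 at 1.49 in the fit with a term for the set, under the fold limit, and LINC02328 was at 1.39 without replicate 4 of control. These 4 had the same sign in the other Δ133p53β line, without a call.

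Both Δ133p53β lines, and no Δ133p53α line, were called for LINC00960, LINC00702, LINC00705 and LINC02321. LINC00960 had 7 to 16 counts in control, 6 to 10 in Δ133p53α1, 11 to 18 in Δ133p53α2, 17 to 30 in Δ133p53α8, 28 to 41 in Δ133p53β5 and 24 to 44 in Δ133p53β10. Its log2 fold changes were 1.76 in Δ133p53β5 and 1.73 in Δ133p53β10, and its difference between the isoforms was 1.34, under the fold limit. LINC00702 and LINC00705 are on chromosome 10, at chr10:4201141-4243912 and chr10:4655427-4682722. They were at 1.86 and 1.88 in Δ133p53β5 and at 1.87 and 2.00 in Δ133p53β10, beside 0.78 to 0.92 and 0.95 to 1.45 in the Δ133p53α lines, which did not pass. Their differences between the isoforms were 0.99 (adjusted p = 0.00452) and 0.71 (adjusted p = 0.146).

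LINC00205 was lower in Δ133p53α1 and in both Δ133p53β lines, and passed the p but not the fold limit in Δ133p53α2 (-1.44). It had 584, 1134, 1579 and 947 counts in control, 145 to 629 in the Δ133p53α libraries and 117 to 447 in the Δ133p53β libraries. Log2 fold changes were -1.71 ± 0.39 in Δ133p53β5 (adjusted p = 0.00609) and -1.67 ± 0.39 in Δ133p53α1 (adjusted p = 0.0128). The 3 called lines are those with 3 of 4 libraries in the set with the negative length trend. Within the sets, the difference from control was -0.92 and -1.29 in Δ133p53α1, where libraries overlapped with control, -1.61 and -0.90 in Δ133p53β5, and -1.41 and -1.01 in Δ133p53β10 (log2, first and second set), and the part of the set in this result was not tested further. Its start is 137 bases from that of POFUT2, an O-fucosyltransferase gene on the opposite strand, and their RefSeq promoter windows share 256 bases. POFUT2 had log2 fold changes of -0.58 to -0.28 and was not called.

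Nearest protein-coding genes were compared with the LINC transcripts next. Among transcripts with a single gene model in the GENCODE annotation (GRCh38), the median distance to the nearest protein-coding gene was 18318 bases, and 31 overlapped it. Both genes were tested in 137 pairs. Across these pairs the Pearson correlation between the log2 fold change of the transcript and of the gene was 0.01 to 0.08 in the 5 lines, as a description across genes that are not independent. A nearest gene called in the same direction was found for 1 of 12 called transcripts in Δ133p53α1, 1 of 8 in Δ133p53α2, 2 of 8 in Δ133p53α8, 2 of 16 in Δ133p53β5 and 2 of 16 in Δ133p53β10. A nearest gene called in the opposite direction was found for 1 called transcript in Δ133p53β5 and 1 in Δ133p53β10. Over all 137 pairs, which include these, the nearest gene was called, in either direction, in 6, 5, 7, 10 and 9. The sign was the same for 7, 7, 5, 9 and 10 of the called transcripts, and the same count over all pairs is not given. LINC01094 lies 28329 bases from ANXA3, which encodes a phospholipid-binding annexin. ANXA3 had 9 to 12 counts in control and 103 to 1071 in the Δ133p53 libraries, with log2 fold changes of 4.41 ± 0.29 in Δ133p53α1 (adjusted p = 1.25e-09) to 6.25 ± 0.30 in Δ133p53α2 (adjusted p = 1.31e-11). SALL3, whose RefSeq promoter window shares 226 bases with that of LINC01896, was called in Δ133p53α8 (1.83), Δ133p53β5 (2.00) and Δ133p53β10 (1.61), and was at 1.20 in Δ133p53α1 and 1.13 in Δ133p53α2 without a call.

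In the opposite direction, LINC00911 and LINC02328 lie 109594 and 257010 bases from FLRT2, an adhesion protein gene with 12 to 19 counts in control and 0 to 3 in each Δ133p53 library. Both transcripts had log2 fold changes above 0 in all 5 lines. NETO1, which lies 283095 bases from LINC02864, had 156 to 280 counts in control and 0 to 3 elsewhere. LINC02864 had log2 fold changes of 0.04 to 0.27 and no call.

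**Figure D4:**
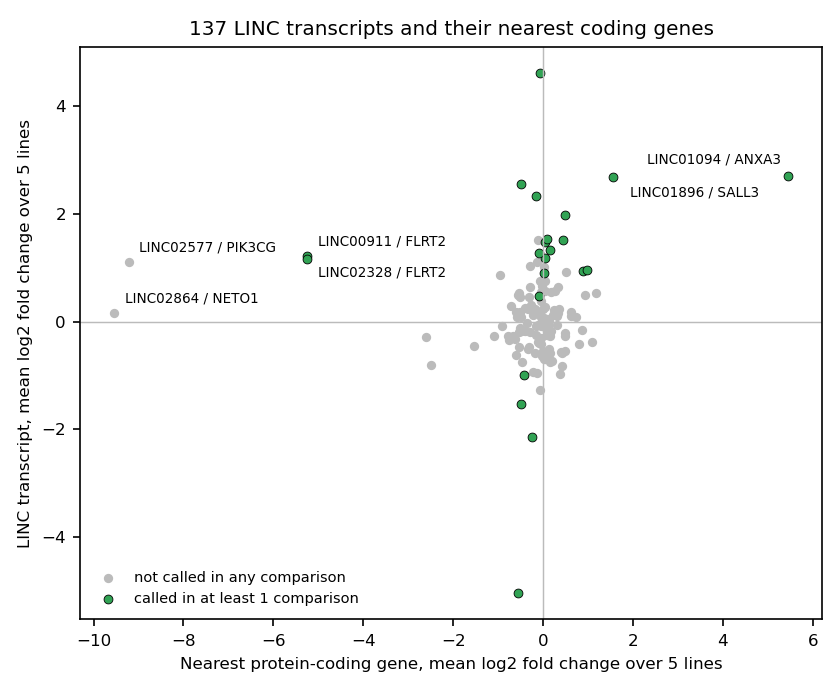
Mean log2 fold change over the 5 lines of 137 LINC transcripts (vertical axis) and of the nearest protein-coding gene (horizontal axis), with transcripts called in any comparison in green. Most pairs lie around 0 on the horizontal axis, LINC01094 with ANXA3 and LINC01896 with SALL3 are high on both, and LINC00911 and LINC02328 are above 0 while FLRT2 is below.

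Exons of 91 of the transcripts with a single gene model overlap those of another gene, 80 of them on the opposite strand and 26 on the same strand, and this holds for 16 of the 31 called transcripts. Among the called transcripts named above it holds for LINC00960, LINC02614, LINC01311, LINC00513, LINC01232, LINC00511, LINC00664, LINC00707, LINC01111, LINC01116, LINC01117, LINC00705 and LINC01106. Among the others it holds for LINC00665, LINC00662, LINC00963, LINC00867, LINC02367, LINC02577, LINC02980 and LINC00334. Their counts are less certain for this reason. LINC01347 and LINC00680 each have 2 gene models of their symbol in the annotation, and their positions are not given.

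A list of 42 LINC transcripts studied in lung and other cancers was compared by counts. Of these, 19 were among the 182, and 2 were called against control, LINC01116 (higher in Δ133p53α1 and Δ133p53β10) and LINC00707 (higher in Δ133p53α2), beside 7.17% of all tested genes and 17% of the 182 called in at least 1 line. The choice of transcripts bears on the 17%, so nothing is read from this comparison. The median log2 fold change of the 19 was -0.06 to 0.27 in the 5 lines, beside -0.05 to 0.03 over all tested genes. LINC00707 was the only one called between the isoforms.

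The called differences were also computed within each set of libraries. Of the 78 pairs of a transcript and a line in which a LINC transcript was called against control, all 78 had the same direction within each of the 2 sets of libraries, and in 74 the libraries of the line and of control did not overlap. Agreement in sign and lack of overlap are both favored here, because only called pairs were examined. No such share over all tested genes is given, and nothing is read from either count. The sizes differed between the sets, as for LINC01117 (0.98 and 2.88) and LINC01116 (0.71 and 2.22) in Δ133p53α1 and LINC02321 (0.50 and 1.88) in Δ133p53β10 (log2, first and second set). Within each set some lines have a single library, so these within-set values have no test. Without the disputed library, 18 LINC transcripts were called in Δ133p53β5 and 5 in all 5 lines, and with it counted in Δ133p53β10 there were 18 and 22 in Δ133p53β5 and Δ133p53β10. Without replicate 3 or replicate 4 of control, 3 were called in all 5 lines.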

How the data were processed

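RNA was measured in 24 libraries of 6 H1299 lines. Per the methods, the authors made strand-specific poly(A) libraries, used Cutadapt 2.6 for trimming, HISAT2 2.1.0 for alignment to GRCh38 and featureCounts 1.5.3 with the Ensembl 107 annotation, and deposited raw counts per gene with its symbol. The strand setting for counting is not given in the sources used here. One row without a name, with 0 counts, was left out.

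The counts were tested in R 4.3.3 with edgeR 4.0.16: TMM normalization, the filterByExpr filter, a single quasi-likelihood fit of the 6 lines (18 residual degrees of freedom), with p-values adjusted by Benjamini-Hochberg across all 17990 genes. The isoform contrast took the mean of the lines of each isoform. CPM and log2 CPM (prior count 2) used TMM-scaled library sizes. Intervals are 95% exact binomial. Alternatives used DESeq2 1.42.0, limma 3.58.1 (voom) and others named at the end. The procedure was tested on simulated data.

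LINC transcripts were those with 20 counts in at least 4 libraries. Named were LINC01419 and LINC00511, those called in all 5 lines, those called between the isoforms, up to 2 called in a single line, the 8 most abundant, the 5 steadiest, and called ones of a cancer list. Transcripts and lists were chosen with earlier results of these data known, and LINC01036, LINC01106, LINC01117, LINC00205, LINC02575, LINC00960, LINC00702, LINC00705, LINC02321, LINC00680, LINC02577 and LINC02709 were named after their values were seen. Nearest genes and positions are from GENCODE 44 and promoters from RefSeq. Replicate libraries of a line differed beyond sampling noise (lowest chi-square per degree of freedom 15.8 over 36 pairs).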

Additional observations from a re-analysis of the deposited data

Results flagged for a closer look

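Between the isoforms, 6 LINC transcripts differed in the test of the difference itself (log2, Δ133p53β minus Δ133p53α). LINC01419 was at 5.34, LINC01515 at 3.83, LINC00664 at 2.75, LINC00511 at 2.64, LINC00707 at -1.67 and LINC02780 at -7.42. The values for LINC01419, LINC00511, LINC02780 and LINC01515 are descriptions. Those of LINC02780, LINC01419, LINC01515, LINC00664 and LINC00511 depend on the prior count because libraries at or near 0 enter them.

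In 5 of the 78 groups of 4 libraries examined, 1 library lay apart by Dixon's test, and chance gives about 1 in 20. LINC01896 was at 85.8 CPM in replicate 1 of Δ133p53α8 and at 55.3 to 59.2 in the others. LINC01515 was at 1.90 CPM in replicate 1 of Δ133p53α1 and at 0.726 to 0.817 in the others. LINC00664 was at 1.16 CPM in replicate 3 of control and at 1.23 in the others. LINC00911 was at 1.12 CPM in replicate 3 of Δ133p53α1 and at 0.610 to 0.661 in the others. LINC01311 was at 6.12 CPM in replicate 1 of Δ133p53α2 and at 2.66 to 2.91 in the others.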

How the results depend on the processing

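When the fold limit was lowered to a 1.5-fold change, the calls rose to 17 in Δ133p53α2, 17 in Δ133p53α8, 34 in Δ133p53β5, 34 in Δ133p53β10 and 15 between the isoforms. With only genes of a mean of at least 1 CPM, which leaves 144 of the transcripts, there were 9 for Δ133p53α1, 7 for Δ133p53α2, 7 for Δ133p53α8, 13 for Δ133p53β5, 11 for Δ133p53β10, 3 in all 5 lines and 3 between lines of an isoform. In the fit with a term for the set, Δ133p53α1 had 11 calls. The other counts stayed within 1.5 times the reported ones with RLE size factors, no filter, DESeq2, limma, the replicate block and both treatments of the disputed library. RLE size factors moved the median log2 fold change of all genes by at most 0.012. Leaving out each library in turn gave 10 to 23 calls for Δ133p53α1, 8 to 12 for Δ133p53α2, 9 to 14 for Δ133p53α8, 16 to 21 for Δ133p53β5, 15 to 25 for Δ133p53β10, 5 to 6 between the isoforms, 3 to 7 in all 5 lines, 29 to 43 among the 6 lines and 5 to 6 within isoforms. The cause was not tested.

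Replicate numbers do not pair the libraries: the correlation of deviations of same-numbered libraries ran from -0.886 to 0.893 over 60 pairs, with a median of -0.023. With the number as a replicate block the calls were 15, 9, 11, 19 and 17 in the 5 lines in the order above, 6 between the isoforms, 5 in all 5 lines, 30 among the 6 lines and 5 within isoforms. For 44 calls of 14 named transcripts, no alternative reversed the direction, but 23 values no longer passed and 414 did under the other settings, as did 63 against 993 with each library left out in turn. The settings that leave a line out of the mean of its isoform were chosen after seeing the data. At this depth, a transcript at 0 counts in a library may hold up to 3, so absence cannot be shown.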

Other observations

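Of a list of 46 long noncoding RNAs with a name of their own, including MALAT1, NEAT1, GAS5, the SNHG host genes and several p53-linked transcripts, 39 were tested. MIR17HG, the host gene of a microRNA cluster, was called higher in Δ133p53β5 and in Δ133p53β10, and no other of the 39 was called in any of the 6 comparisons, beside 7.17% of all tested genes called in at least 1 line. The median log2 fold change of the 39 was 0.16 to 0.41 in the 5 lines, beside -0.05 to 0.03 over all tested genes.

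A further 58 LINC rows were tested but fell short of 20 counts in 4 libraries. Of them, 12 (20.7%) were called in at least 1 line and 2 (3.45%) in all 5, beside 7.17% and 0.889% of all tested genes. These rows have few counts, and tested genes with a mean under 1 CPM were called more often than all tested genes, as given above. Nothing is therefore read from these shares.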
